A study of Mus musculus with 8 samples.

Results

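Messenger RNA of 7 genes that belong to the T helper 2 (Th2) programme was followed in 8 mouse CD4+ T cell libraries: the transcription factor genes Gata3 and Pparg, the secreted factors Areg and Il9, and the receptors Ptgdr2, Ccr4 and Ccr8. The genes were chosen by symbol, and all 7 were found in every library, among 53657 genes that could be joined by symbol across the libraries. The series asks, by its title, about the nuclear receptor RORα and the kinase complex mTORC1 in colitis driven by T cells. Control cells came from Rora_fl/fl mice, and knockout cells from Cd4_cre Rora_fl/fl mice, in which a Cre recombinase under the Cd4 promoter removes the floxed part of Rora in the T cell lineage. All groups thus carried the floxed alleles, and no group of Cre-bearing cells with intact Rora was analysed here. For the colon groups (2 control and 2 knockout libraries), naive CD4+ cells were placed in Tcrbd-/- recipients, and the colon was sampled for CD4+ T cells after 6 weeks. These recipients lack T cells of their own but keep B cells, innate lymphoid cells and myeloid cells, and they are not labelled as carrying the Rora deletion. For the culture groups, naive CD4+ cells were stimulated through plate-bound anti-CD3 with anti-CD28 for 4 days toward the Th17 fate, with TGF-β plus IL-6 (the TGF-β mix) or IL-23 plus IL-1β and IL-6 (the IL-23 mix), and each mix has 1 library of each genotype. Before extraction, every group had 2 hours of PMA and ionomycin, a treatment that drives cytokine gene transcription. The labels give neither the age of the mice nor whether a library holds 1 animal or a pool.

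GATA3 is the zinc-finger factor that directs Th2 development, opens the Il4, Il5 and Il13 locus, and is also required by regulatory T cells and by group 2 innate lymphoid cells. PPARγ, the product of Pparg, is a lipid-sensing nuclear receptor that pairs with RXR, is best known from adipocytes and macrophages, and is used by Th2 cells of barrier tissues. Amphiregulin (Areg) is a ligand of the EGF receptor linked to epithelial repair, and IL-9 acts on mast cells and epithelium. CRTH2, encoded by Ptgdr2, binds prostaglandin D2, while CCR4 binds CCL17 and CCL22, and CCR8 binds CCL1 and, in mice, CCL8. Group 2 innate lymphoid cells or regulatory T cells also use these genes in some tissues, so none marks a Th2 cell by itself.

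RefSeq starts were found for all 7 genes, with 9 start windows in total on build GRCm38.p6. The 250 bases before the start are shown for the master regulator Gata3, for both secreted factors, and for Ccr4, the receptor gene with the most counts. Capitals mark matches, on either strand, to a GATA motif (TGATAA or AGATAA), a ROR half-site (AGGTCA), an AP-1 motif (TGANTCA) or a cAMP response element (TGACGTCA).
Gata3, chr2:9878601-9878850, minus strand: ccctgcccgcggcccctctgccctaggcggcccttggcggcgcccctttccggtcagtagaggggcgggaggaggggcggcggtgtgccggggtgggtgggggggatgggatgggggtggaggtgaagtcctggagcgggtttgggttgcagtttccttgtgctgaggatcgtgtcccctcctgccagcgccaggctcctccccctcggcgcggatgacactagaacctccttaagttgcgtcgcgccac
Areg, chr5:91139349-91139598, plus strand: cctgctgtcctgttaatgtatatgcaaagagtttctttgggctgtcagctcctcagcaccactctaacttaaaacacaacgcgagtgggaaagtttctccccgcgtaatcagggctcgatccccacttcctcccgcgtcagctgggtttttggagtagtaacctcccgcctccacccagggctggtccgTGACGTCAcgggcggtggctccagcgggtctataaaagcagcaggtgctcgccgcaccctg
Il9, chr13:56482258-56482507, minus strand: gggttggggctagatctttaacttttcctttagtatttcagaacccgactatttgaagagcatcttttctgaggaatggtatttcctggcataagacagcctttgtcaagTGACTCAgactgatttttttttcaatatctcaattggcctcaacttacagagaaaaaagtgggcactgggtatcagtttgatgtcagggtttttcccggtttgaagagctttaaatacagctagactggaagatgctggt
Ccr4, chr9:114496545-114496794, minus strand: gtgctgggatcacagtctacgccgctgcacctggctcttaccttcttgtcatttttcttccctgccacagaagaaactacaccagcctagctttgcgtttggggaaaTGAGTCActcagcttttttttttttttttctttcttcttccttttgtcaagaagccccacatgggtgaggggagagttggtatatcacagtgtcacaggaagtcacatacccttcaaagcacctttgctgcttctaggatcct
The Areg window holds the full cAMP response element 61 bases before the start, which occurs in 1.55% of 32851 windows of the same length. AP-1 matches lie 140 bases before the Il9 start (TGACTCA) and 143 bases before the Ccr4 start (TGAGTCA), and 6.75% of windows hold such a match. The Gata3 window, at 70% G and C, holds none of the 4 motifs, nor does that of Ptgdr2. A GATA match, present in 16.6% of windows, was found in Ccr8 only, 239 bases before its start, and the ROR half-site, present in 14% of windows, was found before 2 of the 3 Pparg starts (28 and 9 bases before them). A match describes letters and is not a binding site that was measured here.

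Library totals ran from 13176752 to 15922696 counts. Levels are given as CPM, the counts of a gene per 1000000 counts of a library whose total was scaled by edgeR's TMM factors over all 8 libraries. Log2 differences are knockout minus control from edgeR's quasi-likelihood F-test, with Benjamini-Hochberg adjusted p, called below 0.05. That test reports no standard error (SE). The SE shown with it is the absolute log2 difference divided by the square root of the F statistic. For DESeq2 values the SE is the one that DESeq2 reports. Rora itself, the targeted gene, stood at 279 and 322 CPM in the colon controls and at 147 and 164 CPM in the knockouts, and at 456 and 173 CPM (TGF-β mix) and 139 and 53.9 CPM (IL-23 mix) in control and knockout culture. Its mean in the colon knockouts was 51.8% of the control mean (log2 difference -0.94 ± 0.09, edgeR adjusted p = 2.4e-05). The counts cover the whole gene, so a lasting signal from parts that were not removed cannot be told apart from cells that kept the gene. Markers of T cells were high in all libraries (17 of 17 detected, summed level 8014 to 16710 CPM). The colon knockouts also differed from the colon controls in markers of other cells. Summed epithelial markers were at 59.0 and 55.7 CPM in controls and at 155 and 154.5 CPM in knockouts (10 of 11 tested rose), B and plasma cell markers at 659 and 648 against 2304 and 2506 CPM (6 of 7 rose), fibroblast markers at 37.1 and 27.9 against 124 and 112 CPM (9 of 10 rose), and macrophage markers at 62.2 and 58.4 against 87.6 and 87.9 CPM (7 of 10 rose). Of those that rose, 4 epithelial, 1 B cell, 2 fibroblast and 2 macrophage markers were under the filter in both controls, so that they entered the test through the knockouts alone and had to differ. This filter, 0.709 CPM, uses library totals without the TMM factors, so a control level printed here can lie slightly above it. Of 17 T cell markers 13 fell, 1 rose and 3 did not pass, with summed levels of 16710 and 16160 CPM in controls and 13000 and 12760 CPM in knockouts. The part of these cells in the results below was not tested, except where a value is given. In bulk RNA, a lower level can come from fewer cells of a type or from less RNA per cell, and these cannot be told apart.

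In the colon, Gata3, Areg, Il9 and Ccr8 rose in knockout cells, Ccr4 did not pass, and no member fell, where 19.6% of all 13101 genes tested rose and 19.9% fell (39.5% called). Pparg was called as higher by edgeR but entered the test through the knockout libraries alone, so it had to differ, and DESeq2 did not call it. In culture, none of the 6 passed for genotype by edgeR or by DESeq2, and 1 (Ccr4) had an unadjusted p under 0.05, where 0.0286% of all 13983 genes were called and 3.58% had an unadjusted p under 0.05. The genotype effect in the colon exceeded that in culture for 5 of 6 members when the difference itself was tested, and was below it for none, against 7.73% and 9.57% of 14886 genes in those directions (17.3% in all). Between the mixes, 1 member was higher and 3 were lower in the IL-23 mix, where 35.8% and 34.0% of all genes were called in those directions (69.8% in all). The share of higher genes among the colon calls was 49.6% with TMM but 77.2% when scaled to library totals and 90.1% when scaled to T cell marker counts. These scalings moved the median of all genes up by 0.19 and 0.35 on the log2 scale. For the difference between colon and culture the share was 44.7%, 80.0% and 92.0% in the same order.

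**Figure D1:**
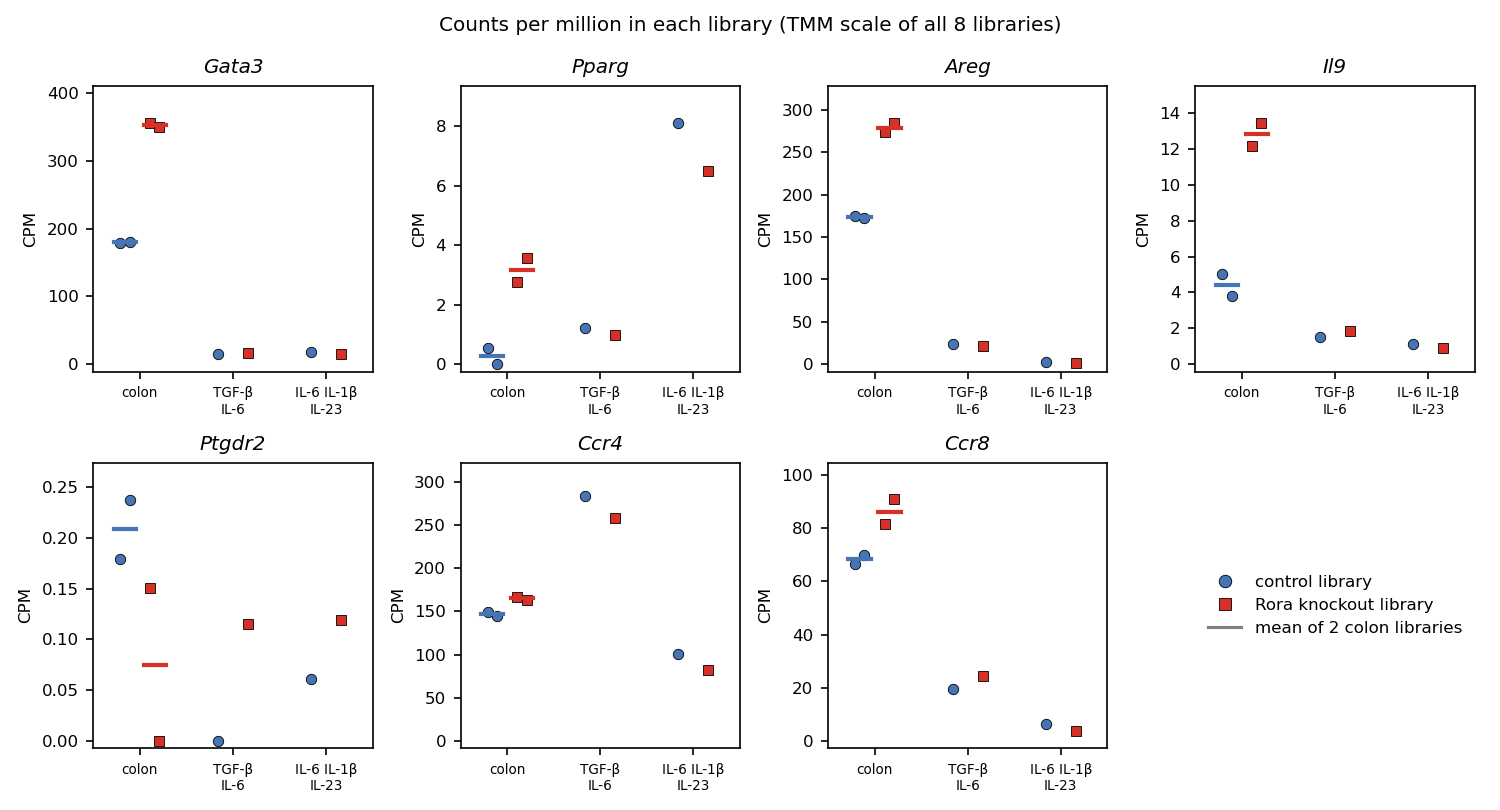
Level of each of the 7 genes in each of the 8 libraries, in CPM on a linear axis that differs between panels; circles are control and squares knockout libraries, and bars are the means of the 2 colon libraries of a genotype. Gata3, Areg, Il9 and Ccr8 are higher in every colon library than in every culture library, whereas Pparg is highest with the IL-23 mix (8.09 CPM) and Ccr4 with the TGF-β mix (283 CPM).

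Gata3 (chr2:9857078-9890034, minus strand, GRCm38) was more abundant than Pparg in every library, per exon length. Its level was 179 and 179.5 CPM in the colon controls and 356 and 349 CPM in the colon knockouts. Both knockout libraries lay well above both controls, and the spread within a genotype was small (control mean 179 ± 0.0895 SD, knockout mean 352.5 ± 4.64 SD, n = 2 each). The log2 difference was 0.98 ± 0.08 (1.97-fold, edgeR adjusted p = 4.7e-06), and it passed under all 11 alternatives tried, at 0.94 to 1.33. Related to T cells, Gata3 had 10.7 and 11.1 counts per 1000 T cell marker counts in controls and 27.4 in each knockout. In culture its level was 15.5 CPM in control and 16.4 CPM in knockout cells with the TGF-β mix, and 18.4 and 15.4 CPM with the IL-23 mix. These 4 libraries lay within a narrow band, far below the colon, where the mean was 16.2 times that in culture. The genotype difference in culture was -0.09 ± 0.12 (edgeR adjusted p = 1.0) and the difference between mixes 0.08 ± 0.12 (edgeR adjusted p = 0.55). The genotype effect was larger in the colon than in culture by 1.06 ± 0.13 (edgeR adjusted p = 2.1e-04). Of the annotated genes that overlap Gata3, Gm13256, on the other strand with 155 shared exon bases, had at most 11 counts in any library, 9230102O04Rik had at most 5, and 4930412O13Rik had 5 and 3 in the colon knockouts and 0 elsewhere.

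Set against the factors of 2 other CD4+ lineages, Gata3 had more reads per read of each of them in the colon knockouts. For each read of Tbx21, the Th1 factor, there were 0.715 and 0.703 Gata3 reads in controls and 1.73 and 1.80 in knockouts. For each read of Foxp3, the regulatory T cell factor, there were 1.58 and 1.63 against 2.99 and 2.98. These ratios were not tested, and they do not depend on how libraries were scaled. Foxp3 itself differed by 0.09 (edgeR adjusted p = 0.41). In culture, with 1 library per value, the Tbx21 ratio was lower in knockout than in control cells in both mixes (0.429 against 0.498, and 0.275 against 0.599). The Foxp3 ratio was also lower (3.07 against 3.76, and 13.6 against 33.9), with Foxp3 at only 0.544 and 1.13 CPM in the IL-23 mix. Tbx21 itself differed by 0.59 for genotype in culture and did not pass (edgeR adjusted p = 0.63).

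**Figure D2:**
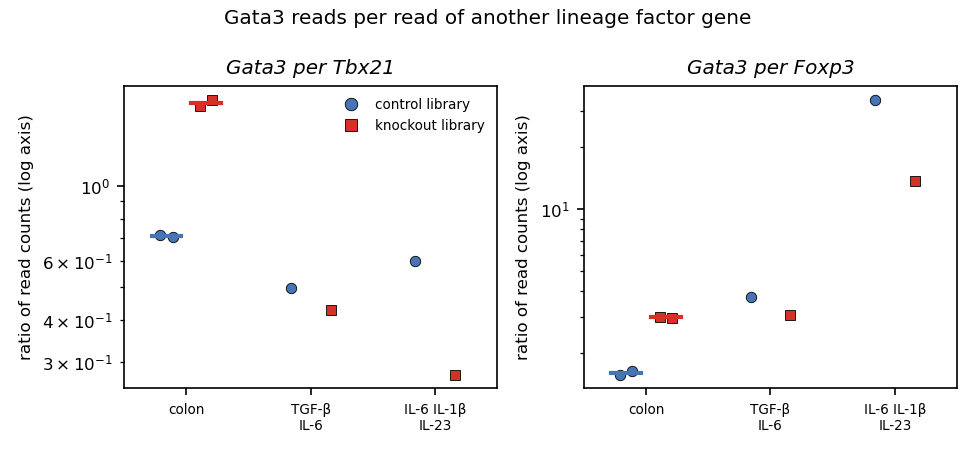
Gata3 reads per read of Tbx21 or Foxp3 in each library, on a log axis; circles are control and squares knockout libraries, bars the mean of 2 colon libraries. In the colon the knockouts lie above the controls in both panels, for Tbx21 at 1.73 and 1.80 against 0.715 and 0.703.

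Of 21 transcription factors known to act with GATA3, 3 rose and 10 fell in the colon knockouts, with a median log2 difference of -0.10 against 0.01 for all genes. For this and the later lists, the shares over all genes are 19.6% risen and 19.9% fallen in the colon. Between the mixes they are 35.8% higher and 34.0% lower. List counts were made with TMM only, and scaling to T cell marker counts moved the colon median of all genes up by 0.35. Batf, an AP-1 factor, fell by 1.16 (edgeR adjusted p = 2.0e-06), Nfil3 fell by 0.87, the Notch receptor gene Notch2 fell by 0.92 and Irf4 fell by 0.59. Among 10 tested factors that oppose GATA3, 2 rose and 3 fell, including Eomes (-0.73), Runx3 (-0.47) and Tbx21 (-0.34), while Bcl6, the follicular helper factor, rose by 0.37. Of 13 receptors and STAT genes of type 2 signalling, 3 rose and 8 fell. Il1rl1, which encodes the IL-33 receptor, went from 114 and 112 to 211 and 219 CPM (0.93 ± 0.08, edgeR adjusted p = 8.0e-06), and Il2rb fell by 1.05. Of 6 tested type 2 cytokine genes 5 rose, with a median of 2.47, and 1 of the 5, Il33, entered through the knockouts alone, as did Bhlhe41 among the partners. Il4 stood at 41.1 and 34.0 CPM in controls and at 430 and 514 CPM in knockouts (3.66 ± 0.12, edgeR adjusted p = 7.1e-09), and Il5 rose by 2.91, Il13 by 2.02 and Il3 by 5.28. Csf2 was the 1 cytokine gene of the list that fell (-0.23, edgeR adjusted p = 0.046). In the IL-23 mix, against the TGF-β mix, 10 of the 20 tested partners rose and 8 fell (Satb1 1.91, Nfil3 2.23, Irf4 -1.01), and 5 of the 10 opposing factors fell and 2 rose, with Zbtb32 at -0.93 and Hlx at 6.25, while Gata3 did not pass.

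Pparg (chr6:115360951-115490399, plus strand) was scarce. It had 6 and 0 counts in the colon controls (0.539 and 0 CPM) and 37 and 50 in the knockouts (2.78 and 3.56 CPM). Both knockouts lay above both controls, and the gene entered the colon test through the knockout libraries alone. The fitted log2 difference was 3.60 ± 0.61 (edgeR adjusted p = 8.0e-04). Summed over libraries, the ratio of the knockout to the control level was 12.6, with a 95% interval of 5.56 to 35.3 that covers counting error only. DESeq2 did not call it (3.57 ± 1.79, DESeq2 adjusted p = 0.13). Without control replicate 1, which holds all 6 control counts, only a control with 0 counts remains. The mean knockout level was 13.4 times the level that the floor of 3 counts would give in that control. This floor is not an upper limit, since the 95% counting interval of 0 counts reaches about 4. Without control replicate 2, which has 0 counts, the fitted difference was 2.53. In culture the counts were 21 and 17 in control and knockout cells with the TGF-β mix and 134 and 109 with the IL-23 mix (1.22, 0.976, 8.09 and 6.49 CPM). Pparg was the only one of the 6 tested members that was higher in the IL-23 mix, in both genotypes (6.61-fold, log2 2.72 ± 0.23, edgeR adjusted p = 1.2e-05), where its level was above that of every colon library. Genotype made a difference of -0.31 ± 0.21 in culture (edgeR adjusted p = 1.0). The genotype effect was larger in the colon by 3.92 ± 0.66 (edgeR adjusted p = 0.0013), and by 2.86 without control replicate 2, while DESeq2 gave no adjusted p for it.

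Because Pparg is also an adipocyte, macrophage and epithelial gene, its counts were read beside markers of those cells. Adipoq, made by adipocytes, was at 1.08 and 1.05 CPM in replicate 1 of each genotype and at 0 in replicate 2 of each. Lpl (8.44, 0.0792, 5.48 and 2.57 CPM), Fabp4 (2.96, 0.317, 2.85 and 1.50 CPM) and Scd1 (21.9, 0.158, 12.5 and 1.78 CPM), given in the order control 1, control 2, knockout 1 and knockout 2 and picked after their values were seen, were also higher in the replicates numbered 1. Knockout replicate 2, the colon library with the most Pparg, had Adipoq at 0 but more Lpl, Fabp4 and Scd1 than control replicate 2, and the part of adipocytes in the Pparg result was not tested. None of the 3 tested adipocyte markers passed in the colon, and the summed list was at 20.9 and 13.7 CPM in controls and 14.9 and 10.3 CPM in knockouts. In the colon, 10 of 11 tested epithelial markers were higher in knockouts (Krt8 0.808 and 0.633 against 11.7 and 12.97 CPM). So were 7 of 10 tested macrophage markers (C1qb 3.50 and 3.09 against 9.46 and 8.76 CPM). Cd68 (0.21), Csf1r (-0.04) and Cd14 (-0.34) did not pass. Of those that rose, 4 epithelial markers, Krt8 among them, and 2 macrophage markers entered the test through the knockouts alone. The part of these cells in the Pparg result was not tested. In culture, C1qa, C1qb and Lyz2 had no count, and of the adipocyte markers Adipoq had none or 0.0595 CPM. With the IL-23 mix the 5 tested fibroblast markers rose (Lum, an extracellular proteoglycan gene, from 1.22 and 1.44 to 387 and 353.5 CPM), and so did Lipe and Adrb3 of the adipocyte list and Cd68, Mrc1 and Aif1 of the macrophage list, whose part was not tested either.

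**Figure D3:**
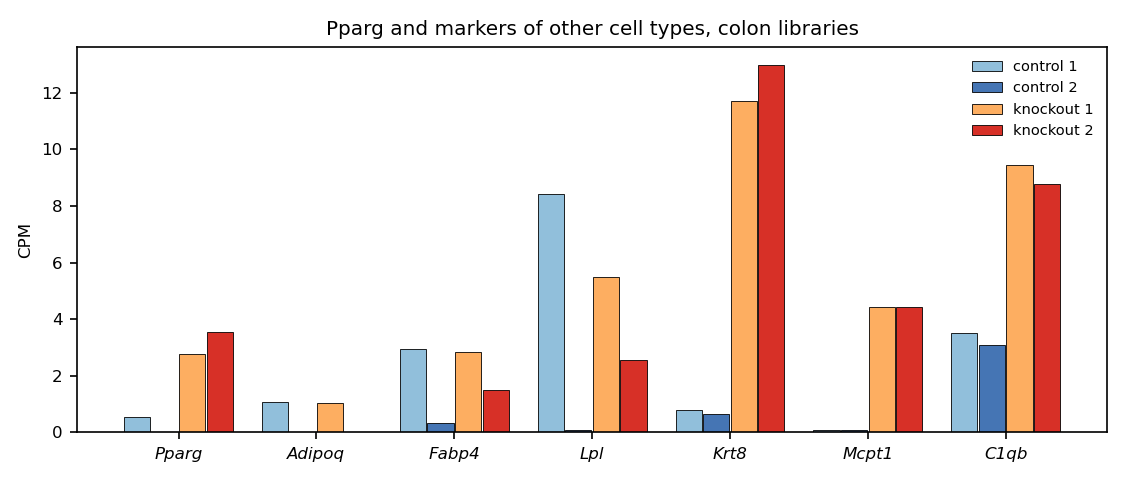
Pparg beside 6 genes of other cell types in the 4 colon libraries, as bars in CPM from 0; the 6 genes were picked for display after their values were seen. Adipoq is present in replicate 1 of each genotype and 0 in replicate 2. In knockout 2 Pparg is at 3.56 CPM, Lpl at 2.57 CPM and Fabp4 at 1.50 CPM. In control 2 they are at 0, 0.0792 and 0.317 CPM. Krt8, Mcpt1 and C1qb are higher in both knockouts. The part of these cell types in the Pparg result was not tested.

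Of 20 tested PPARγ partners and targets, 3 rose, 4 fell and 13 did not pass in the colon (median 0.11), where 19.6% of all genes rose and 19.9% fell. Rxra, the partner receptor, went from 32.1 and 34.2 to 52.3 and 57.5 CPM (0.73 ± 0.10, edgeR adjusted p = 1.9e-04), the coactivator gene Ncoa2 rose by 0.38, and Ppard and Fabp5 fell by 0.49 and 0.57. Between the mixes, 7 of 16 rose in the IL-23 mix and 6 fell (median 0.12), where 35.8% of all genes rose and 34.0% fell. The lipid droplet gene Plin2 went from 10.2 and 7.58 to 128 and 104 CPM (3.71 ± 0.09, edgeR adjusted p = 3.5e-08) and the desaturase gene Scd2 from 241 and 180.1 to 737 and 735 CPM, while Rxra fell by 1.70 and Ncoa2 fell by 1.17.

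Areg (chr5:91139599-91148432, plus strand) was the most abundant member per transcript length in the colon. It was at 174 and 172 CPM in the colon controls and at 274 and 284 CPM in the knockouts. The log2 difference was 0.69 ± 0.08 (1.62-fold, edgeR adjusted p = 5.0e-05), and all 11 alternatives kept it past the threshold. In culture Areg was at 24.4 and 21.5 CPM (control and knockout, TGF-β mix) and at 2.54 and 1.85 CPM (IL-23 mix). It had the largest difference between mixes among the members, 10.5-fold lower with the IL-23 mix (-3.39 ± 0.15, edgeR adjusted p = 4.5e-07), in both genotypes. Knockout cells had slightly fewer Areg counts in each mix, but the difference of -0.23 ± 0.14 did not pass (edgeR adjusted p = 1.0). The colon effect exceeded the culture effect by 0.91 ± 0.14 (edgeR adjusted p = 7.7e-04). Areg is also made by epithelium, whose markers were higher in the knockouts. Its chromosomal neighbour Ereg, 45952 bases away and likewise a ligand of the EGF receptor, was far scarcer, at 0.539 and 0.0792 CPM in the colon controls and at 2.78 and 1.64 CPM in the knockouts (2.86 ± 0.59, edgeR adjusted p = 0.0028).

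Among 9 tested ligands, receptors and sheddases of the EGF family, 4 rose and 1 fell in the colon (median 0.70). Of the 4, Ereg, Tgfa and Egfr were under the filter in both controls and entered the test through the knockouts alone. Adam10, a sheddase, went from 83.2 and 87.0 to 141 and 134 CPM (0.70 ± 0.08, edgeR adjusted p = 7.5e-05), Tgfa was at most at 0.18 CPM in controls and at 0.976 and 1.64 CPM in knockouts, and Rhbdf2, needed for the maturation of the sheddase ADAM17, fell by 0.54. Between the mixes 2 of 7 rose and 2 fell. Egfr was at 21.9 and 18.4 CPM with the TGF-β mix and at 133 and 123 CPM with the IL-23 mix (2.67 ± 0.08, edgeR adjusted p = 8.9e-08), opposite in direction to Areg.

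Il9 (chr13:56479277-56482246, minus strand) was at 5.03 and 3.80 CPM in the colon controls and at 12.2 and 13.5 CPM in the knockouts, from 56, 48, 162 and 189 counts. The log2 difference was 1.55 ± 0.19 (2.93-fold, edgeR adjusted p = 8.8e-05), and all 11 alternatives kept the call at 1.34 to 1.90. In culture, where IL-4, the usual partner of TGF-β for inducing IL-9, is not among the listed cytokines, Il9 had 26 and 32 counts with the TGF-β mix and 19 and 15 with the IL-23 mix. The 4 culture libraries were all below the colon controls, at 0.893 to 1.84 CPM. Neither genotype (0.03 ± 0.33, edgeR adjusted p = 1.0) nor mix (-0.71 ± 0.33, edgeR adjusted p = 0.086) passed there. The genotype effect was larger in the colon by 1.51 ± 0.38 (edgeR adjusted p = 0.014). Of 14 regulators of Il9, 1 rose and 6 fell in the colon (median -0.19). The one that rose was Spi1, which encodes PU.1 and is also a myeloid gene (0.987 and 0.950 against 3.15 and 2.78 CPM, 1.61 ± 0.32, edgeR adjusted p = 0.0022), and Batf and Irf4 were among those that fell. Of 4 tested markers of mast cells, on which IL-9 acts, and basophils, 3 rose and 1 fell. Hdc, the histidine decarboxylase gene, went from 19.8 and 18.1 to 112.5 and 110.5 CPM. The protease genes Mcpt1 (0.0898 and 0.0792 against 4.43 and 4.42 CPM) and Mcpt4 (0 in both controls, 1.05 and 1.14 CPM in knockouts) entered the test through the knockouts alone, and Kit fell by 0.88. The summed list, of which Kit is the largest part, was at 240 and 239 CPM in controls and at 248 and 230 CPM in knockouts. Of its 13 genes 8 and 8 had no count in the controls and 3 and 1 in the knockouts. Ms4a2 was at 0 in all 4 colon libraries, Fcer1a at 0 or 0.0713 CPM and Cpa3 at most at 0.43 CPM, and the part of these cells in the Il9 result was not tested.

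Ptgdr2 (chr19:10937160-10942511, plus strand) was at or below the floor of 3 counts in every library. It had 2 and 3 counts in the colon controls, 2 and 0 in the knockouts, and 0, 2, 1 and 2 in the culture libraries. No difference can be given at this depth, since 3 counts correspond to 0.172 to 0.269 CPM. Of its exons, 1031 bases are shared with Ccdc86 on the other strand, which had 720 to 1756 counts, and the strand setting of the counting is not stated in the labels, so reads from that stretch cannot be told apart. The rest of the prostaglandin D2 and E2 pathway was better covered, and 4 of 10 tested genes rose and 2 fell in the colon (median 0.37). Hpgds, the synthase of prostaglandin D2 in blood cells, was at 0.718 and 0.554 CPM in controls and at 4.06 and 4.42 CPM in knockouts (2.73 ± 0.32, edgeR adjusted p = 8.0e-05), through which alone it entered the test, Ptger4 rose by 0.31 and Ptger2 fell by 0.26. Ptgdr, the other receptor of prostaglandin D2, had at most 0.0792 CPM.

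Ccr4 (chr9:114490316-114504916, minus strand) was at 149.7 and 145 CPM in the colon controls and at 167 and 163 CPM in the knockouts. The difference of 0.17 ± 0.08 did not pass (edgeR unadjusted p = 0.048, edgeR adjusted p = 0.10). It passed when libraries were scaled to their totals (0.36, edgeR adjusted p = 0.0031) or to T cell marker counts (0.52, edgeR adjusted p = 3.7e-04), in which the median of all genes also moved up. Per 1000 T cell marker counts there were 8.96 and 8.95 Ccr4 counts in controls and 12.9 and 12.8 in knockouts. In culture Ccr4 was at 283 and 258 CPM with the TGF-β mix, above every colon library, and at 100 and 82.6 CPM with the IL-23 mix, below every colon library (2.97-fold lower, -1.57 ± 0.07, edgeR adjusted p = 5.2e-07). Knockout cells had less in each mix, at 0.911 (95% counting interval 0.874 to 0.949) and 0.823 (0.765 to 0.884) of the control level, and the pooled difference of -0.20 ± 0.07 did not pass (unadjusted p = 0.021, edgeR adjusted p = 1.0). The colon and culture effects differed by 0.37 ± 0.11 (edgeR adjusted p = 0.029), a call that was lost without any 1 of the 4 colon libraries (edgeR adjusted p of 0.056 without control replicate 1, 0.090 without control replicate 2, 0.071 without knockout replicate 1 and 0.060 without knockout replicate 2).

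Ccr8 (chr9:120092114-120094906, plus strand) was at 66.7 and 70.0 CPM in the colon controls and at 81.5 and 90.9 CPM in the knockouts. The gene rose by 0.34 ± 0.09 (1.27-fold, edgeR adjusted p = 0.011). This call was lost without knockout replicate 2 (0.25, edgeR adjusted p = 0.099) and when the spread was taken from all 8 libraries (0.34, edgeR adjusted p = 0.071). In culture Ccr8 was at 19.6 CPM in control and 24.4 CPM in knockout cells with the TGF-β mix, and at 6.40 and 3.51 CPM with the IL-23 mix. The mix made a 4.45-fold difference (-2.15 ± 0.23, edgeR adjusted p = 5.5e-05), lower with IL-23 as for Areg and Ccr4, and it was 3.06-fold (95% counting interval 2.45 to 3.84) in control and 6.95-fold (5.28 to 9.29) in knockout cells. The genotypes went opposite ways in the mixes, at 1.25 (95% counting interval 1.08 to 1.44) of control with the TGF-β mix and 0.549 (0.392 to 0.761) with the IL-23 mix, and with 1 library each the difference between mixes was not tested. Averaged over mixes the genotype difference was -0.03 ± 0.22 (edgeR adjusted p = 1.0), and the colon effect did not differ from it past the threshold (0.36 ± 0.23, edgeR adjusted p = 0.31).

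Of 4 tested genes for ligands of these receptors, Ccl1, Ccl17 and Ccl22 rose in the colon knockouts, and Ccl8 was called but entered the test through the knockouts alone. Ccl1, made by activated T cells and a ligand of CCR8, went from 493 and 514 to 1472 and 1654 CPM (1.64 ± 0.09, edgeR adjusted p = 2.6e-07). Ccl17 (1.31) and Ccl22 (0.97), mostly products of myeloid cells, rose from lower levels of at most 6.65 CPM. Ccl8 was at 0.449 and 0.475 CPM in controls and at 2.55 and 2.07 CPM in knockouts. In culture these 4 genes were at most at 1.55 CPM and were not tested. Of 16 other receptors that guide migration, 5 rose and 4 fell in the colon (median 0.04), and of the 5 Ccr10 entered through the knockouts alone. Gpr15, which brings T cells to the large intestine, went from 7.45 and 8.31 to 41.6 and 47.3 CPM (2.50 ± 0.13, edgeR adjusted p = 2.7e-07), Ccr9 rose by 0.91, and the Th17 receptor gene Ccr6 and the Th1 receptor gene Cxcr3 fell by 1.88 and 0.90. In the IL-23 mix 8 of 13 rose and 3 fell, and Cxcr4 rose by 2.08 and S1pr1 by 3.35, against the direction of Ccr4 and Ccr8.

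**Figure D4:**
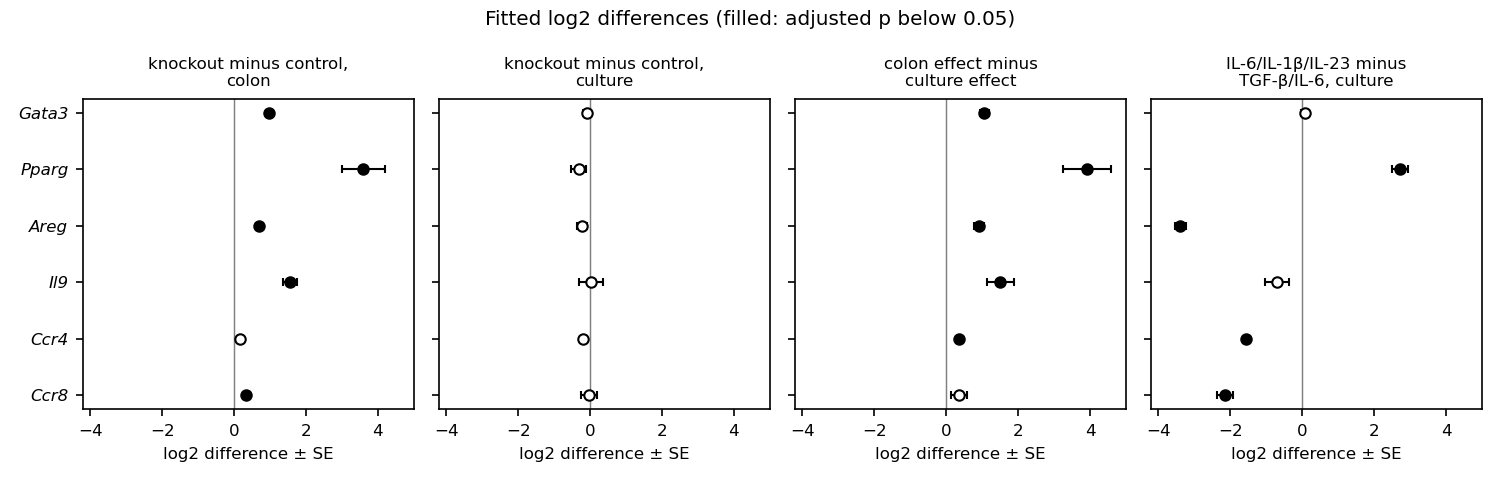
Fitted log2 differences ± SE of the 6 members that could be tested, in 4 comparisons on the same axis; filled points have an edgeR adjusted p below 0.05. Genotype points are filled for 5 of 6 genes in the colon (39.5% of all genes tested) and for none in culture (0.0286%). Of the 5, Pparg entered the colon test through the knockouts alone and had to differ. The mix moves Pparg up (2.72) and Areg (-3.39), Ccr8 (-2.15) and Ccr4 (-1.57) down.

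How far the colon result depends on scaling and on the test is shown for each gene. Gata3, Areg and Il9 passed under every alternative tried, at 0.94 to 1.33, 0.66 to 1.04 and 1.34 to 1.90. Both other scalings moved each of these genes up along with the median of all genes.

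**Figure D5:**
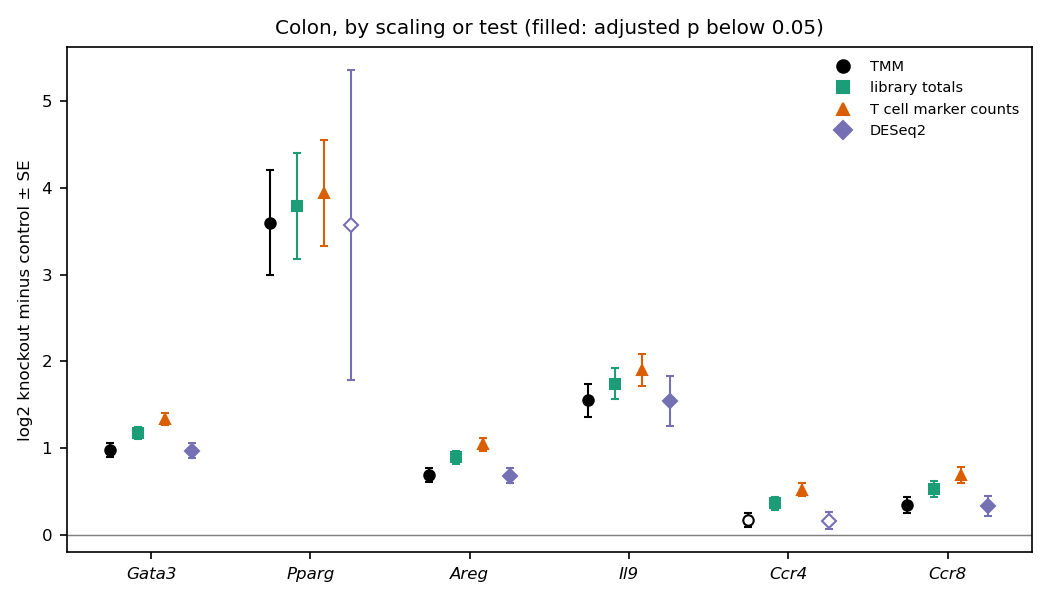
Colon log2 difference ± SE (knockout minus control) of 6 members with TMM scaling, library totals, T cell marker counts, and DESeq2; filled symbols have an adjusted p below 0.05. Ccr4 is filled for library totals (0.36) and T cell marker counts (0.52) only, and Pparg is open for DESeq2 (3.57 ± 1.79).

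Compared per kilobase of exon (RPKM), the order of the members differed by source. In the colon controls mean RPKM was 143 ± 1.19 for Areg, 58.2 ± 1.98 for Ccr8, 47.6 ± 1.16 for Ccr4, 45.1 ± 0.0225 for Gata3, 8.23 ± 1.62 for Il9 and 0.0912 ± 0.129 for Pparg (SD, n = 2). In the colon knockouts Gata3, at 88.6 ± 1.17, stood above Ccr8, at 73.4 ± 5.64, and Ccr4, at 53.4 ± 0.96. With the TGF-β mix Ccr4 led at 91.6 RPKM in control cells, followed by Areg at 20.1, Ccr8 at 16.6, Gata3 at 3.88, Il9 at 2.81 and Pparg at 0.411. With the IL-23 mix Ccr4 led again at 32.4 RPKM, and Pparg, at 2.74, stood above Areg, at 2.09. Ordered by CPM across the 6 groups, Gata3, Areg, Ccr8 and Il9 shared colon knockout first and colon control second, and for Ccr8 the call between these 2 groups depended on the library and the spread, as given above. The counting intervals of neighbouring groups overlapped for the culture groups of Gata3 and of Il9 and for the colon groups of Ccr4. They also overlapped for Areg and Pparg between control and knockout cells within each mix. The same held for Pparg between TGF-β mix knockout cells and colon controls, and for all neighbours of Ptgdr2. These are intervals of single libraries, and their overlap does not show that the neighbours are alike. Intervals that are apart show no separation of the other neighbours, since libraries of 1 colon group differed by more than counting error and each culture group has 1 library.

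Across the 8 libraries, the genes whose centred log2 CPM lay closest to that of Gata3 were Batf2 (root mean square distance 0.09, Pearson r = 0.999), Mgp (0.16), Ighv9-3 (0.16), Trf (0.17) and Sod3 (0.17), out of 12165 genes compared. Ighv9-3 is an immunoglobulin segment, a B cell gene. Closest to Areg were Tbc1d30 (0.42), Rasl11a (0.46) and Fasl (0.51), closest to Ccr4 were Prnp (0.09), Syne2 (0.11) and Exosc2 (0.12), and closest to Ccr8 were Mmp12 (0.27), Sntb1 (0.33) and Gfod1 (0.33). Il9 lay nearest to Syk (0.28), Igkv13-85 (0.28) and Hk3 (0.28), and Pparg, which had no close match, to St6gal1 (0.71), Coro2b (0.74) and Lrrc66 (0.77). Among the members the closest correlations were those of Areg with Ccr8 (r = 0.99) and of Gata3 with Il9 (r = 0.95), and Pparg was negatively correlated with all 5 others (r of -0.19 to -0.57). These values are descriptions of 8 libraries that fall into colon and culture, and that division enters each of them.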

How the data were processed

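RNA sequencing counts were used for 4 colon and 4 culture libraries. The authors deposited whole-number read counts for each gene, not normalized, per the file headers. The submitters' processing notes name build mm10, Trim Galore, Bowtie2, featureCounts, DESeq2 and edgeR, without roles or versions. The strand setting of the counting is not stated in the labels. Colon files held 54446 entries and culture files 55341, joined where a symbol was unique. Symbols turned into dates (27 and 26 per file, at most 0.269% of counts) were neither named nor joined.

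Tests were made in R 4.3.3 with edgeR 4.0.16 (quasi-likelihood F-test, filterByExpr with a minimum count of 10, TMM, Benjamini-Hochberg adjustment over all genes, threshold 0.05). Colon was fitted alone (2 residual degrees of freedom). Culture was fitted with terms for mix and genotype (1 residual degree of freedom), so the mixes serve as repeats of the genotype difference. The difference between colon and culture effects came from all 8 libraries (3 residual degrees of freedom). DESeq2 1.42.0, other scalings, no filter, a replicate block and left-out libraries were alternatives. Ratios within a mix have 95% intervals for counting error only. RPKM used exon lengths of GENCODE M21. On simulated data the test recovered 83.0% of 200 genes changed 1.5-fold for genotype in colon, 93.5% in culture, 86.0% for the mix and 48.0% for the difference between colon and culture. Only well-counted genes were changed, and each was given the fitted average spread at its level. These shares therefore do not cover scarce genes such as Il9 and Pparg in culture. In the genotype run for culture, no simulated gene differed between mixes or had a genotype effect that differed between them. The 93.5% may thus be higher than the recovery in the measured culture data. Calls among unchanged genes numbered 6 for genotype in colon, 16 in culture, 8 for the mix and 2 for the difference between colon and culture. In the measured culture data, Ccr6 differed by -0.96 for genotype and did not pass (edgeR adjusted p = 0.069).

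The 2 libraries of a colon group differed beyond counting error (mean chi-square over genes 7.57 in control, 5.51 in knockout). Nothing says that they came from separate animals, so the spread behind each p-value may be technical.

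The members and lists were chosen with earlier results of these data known, and 1 gene of a list is not reported here. Named genes were the members, Rora, up to 4 genes per list with the smallest p-values among those that passed, and the 5 (Gata3) or 3 (others) genes with the closest pattern. Other genes were chosen after their values were seen, as was every gene named for a level near 0.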

Additional observations from a re-analysis of the deposited data

Results flagged for a closer look

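The genotype effect differed between colon and culture, by the test of the difference itself (edgeR), for Gata3 by 1.06, for Pparg by 3.92, for Areg by 0.91, for Il9 by 1.51 and for Ccr4 by 0.37 on the log2 scale. In each case the colon effect was the higher. Cell source, time, host and cytokines differ together between colon and culture and cannot be told apart. Ccr8 in cultured knockout cells was at 1.25 of the control level with the TGF-β mix and at 0.549 with the IL-23 mix, opposite directions from 1 library each, and that difference was not tested.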

How the results depend on the processing

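Of 239 values of single members under alternatives, 219 kept their direction and their side of the threshold, 7 lost their call, 3 gained one and 10 changed sign. The 10 sign changes were all in culture and in values that had not passed. The genotype difference of Ccr8 became 0.01 with T cell marker scaling and 0.32 without either IL-23 mix library. That of Il9 became -0.03 with DESeq2 and -0.36 without either TGF-β mix library, and that of Gata3 became 0.09 and 0.08 without the control or the knockout library of the IL-23 mix. The mix difference of Gata3 became -0.10 without the control library of the TGF-β mix and -0.09 without that of the IL-23 mix. These culture leave-outs used the spread of all 8 libraries, since 3 culture libraries alone leave no residual degrees of freedom, and the lone library of a group is then assumed to vary like the others.

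The count of genes called for genotype in culture was 4 and became 9 with library totals, 9 with DESeq2 size factors, 87 with T cell marker scaling, 7 with DESeq2, 0 without a filter (472 at an unadjusted p under 0.05) and 15 with the spread of all 8 libraries, where it was 18, 17, 7 and 7 without 1 culture library. The cause was not tested. The count for the difference between colon and culture was 2575 and ran from 1676 (without knockout replicate 2 of the colon) to 2452 without 1 colon library. In colon, 5173 genes were called, and 4198 to 5133 without 1 library.

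The replicate numbers of the colon libraries are not said to pair animals. Deviations of same-numbered libraries from their group means correlated at 0.15, over only 2 pairs. With the replicate block 6230 genes were called in the colon, and Ccr4 passed (0.17, edgeR adjusted p = 0.037). Depth limited Ptgdr2 in all libraries and Pparg in the colon controls.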

Other observations

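Outside the 7 genes, the IL-23 mix raised 5 of 6 tested type 2 cytokine genes in culture, and the 2 with the smallest p-values were Il24 (1.79 and 1.78 CPM with the TGF-β mix, 813 and 715 CPM with the IL-23 mix, log2 difference 8.73 ± 0.11, edgeR adjusted p = 3.1e-09) and Il33 (3.30 and 4.19 against 248 and 211 CPM, 5.93 ± 0.13, edgeR adjusted p = 2.5e-08). Il24, a member of the IL-10 family, and Il33, an alarmin usually seen in stromal cells, were at most at 0.214 and 1.20 CPM in the colon. Il13 was at 0.810 and 0.459 CPM with the TGF-β mix and at 9.30 and 4.58 CPM with the IL-23 mix, while Gata3 differed little between the mixes (0.08 ± 0.12). Il4 was the 1 tested gene of the list that did not pass (0.63, edgeR adjusted p = 0.094). Il5, at most at 0.0604 CPM in culture, was not tested there. For genotype in culture, none of the 100 tested genes of the 10 pathway lists was called by edgeR or DESeq2, and 14 had an unadjusted p under 0.05 in edgeR. Over all 13983 genes tested there, edgeR called 0.0286%, and 3.58% had an unadjusted p under 0.05.

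In the colon knockouts, 3 of 10 regulatory T cell markers rose and 3 fell. Nrp1 went from 3.41 and 3.80 to 16.2 and 16.7 CPM, Ikzf2 from 44.0 and 50.8 to 98.7 and 111 CPM, and Tnfrsf18 fell by 0.40. Of 8 tested markers of group 2 innate lymphoid cells, 5 rose (Calca by 1.73, Hs3st1 by 0.98, Il1rl1 by 0.93, Klrg1 by 0.56, and Il17rb from 3.86 and 3.40 to 6.76 and 7.70 CPM) and 2 fell (Kit by 0.88 and Ly6a by 0.63). Calca, a neuropeptide gene, was at 20.8 and 19.9 CPM in controls and at 65.2 and 69.1 CPM in knockouts. Arg1 and Nmur1, which were not tested, were at most at 0.526 and 0.713 CPM, and the summed list was at 1279 and 1349 CPM in controls and at 1062 and 1124 CPM in knockouts. The part of these cells in the Gata3, Areg and Il9 results was not tested.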
